A study of Mus musculus with 228 samples.

Results

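The livers of chow-fed mice kept on long days were compared with those of chow-fed mice kept on short days. Long days (LD16/8) had 16 h of light and 8 h of dark, and short days (LD8/16) had 8 h of light and 16 h of dark. The 12 libraries, 6 of LD16/8 and 6 of LD8/16, were taken by their labelled tissue, diet and cycle from 228 libraries of 10 tissues, of which 60 were liver. The mice were C57BL/6N, an inbred strain, aged 10 weeks when obtained. They were housed 1 to a cage and held on their cycle for 42 days, with 24 mice for each diet and cycle. Feed and drinking water were sterilised in all groups. Liver libraries of LD16/8 and LD8/16 mice that drank an antibiotic cocktail, 6 of each, are set beside the chow libraries where a result calls for it, and the agents of the cocktail are not named in the sources used here.

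Day length reaches the liver through the brain's central clock, feeding time and hormones, and hepatocytes run a clock of their own. In that clock, Arntl (BMAL1) with Clock or Npas2 switches on the Per, Cry and Nr1d genes and outputs such as Dbp, and the Per and Cry proteins repress the activators. A second programme of hepatocytes, the acute phase response, raises serum amyloid A and other plasma proteins within hours of an inflammatory signal. Neutrophils carry their own messages into liver RNA. Genes of primary granules, such as Mpo and Elane, are transcribed mainly in bone marrow precursors, those of specific granules, such as Ltf and Ngp, somewhat later, and calprotectin (S100a8 and S100a9) in mature cells too.

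Library totals were 76.9 to 117 M counts (M, 1e6) at LD16/8 and 80.3 to 104 M at LD8/16, with means of 100.9 ± 14.6 M and 91.8 ± 8.53 M (SD, n = 6 each; two-sided exact permutation p = 0.21). Hepatocyte markers such as Alb and Apoa1 were high in every library, at a summed 156244 to 205106 CPM (counts per 1e6) at LD16/8 and 118251 to 197186 CPM at LD8/16. A pair of libraries stood apart. LD8/16 replicate 3 held 40.9% of its counts on mitochondrially encoded genes, against 2.96 to 7.22% at LD16/8 and 3.09 to 5.75% in the other 5 LD8/16 libraries. LD16/8 replicate 6 held 1383 CPM summed over 12 neutrophil genes, against 14.6 to 118 CPM in the other LD16/8 libraries and 20.3 to 61.0 CPM at LD8/16. Lcn2, which hepatocytes also make, was 789 of those 1383 CPM, and the other 11 genes summed to 595 CPM in that library, against 6.43 to 80.1 CPM in the other LD16/8 libraries and 8.16 to 23.5 CPM at LD8/16. The 13 mitochondrially encoded genes had a median log2 difference of -1.20 with all 12 libraries and 0.44 without that pair. Results that rest on these libraries are given with and without them.

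Across the transcriptome, few genes separated the cycles. Of 19234 genes tested, 5 passed edgeR's quasi-likelihood test at a Benjamini-Hochberg adjusted p under 0.05 (0.026%). The 4 that rose at LD16/8 (0.0208% of genes tested) were neutrophil genes: Ngp, Camp, Elane and Cd177. The only one that fell (0.0052%) was Gm13707, a predicted gene. Without LD16/8 replicate 6 and LD8/16 replicate 3, none passed, and 859 genes had an unadjusted p under 0.05, against 776 with all libraries (4.03% of genes tested). The count was also 0 without either of these libraries alone, 2 without LD16/8 replicate 4, 1 to 4 without another LD8/16 library, and 12 or 13 without another LD16/8 library. Other tools were run on the same 59 liver libraries of both diets and all cycles as the edgeR fit. DESeq2 called 8 genes, none of them among these 5 but with the neutrophil genes S100a8 and S100a9 among them. limma-voom called none, and edgeR fitted to the 12 compared libraries only also called none.

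**Figure D1:**
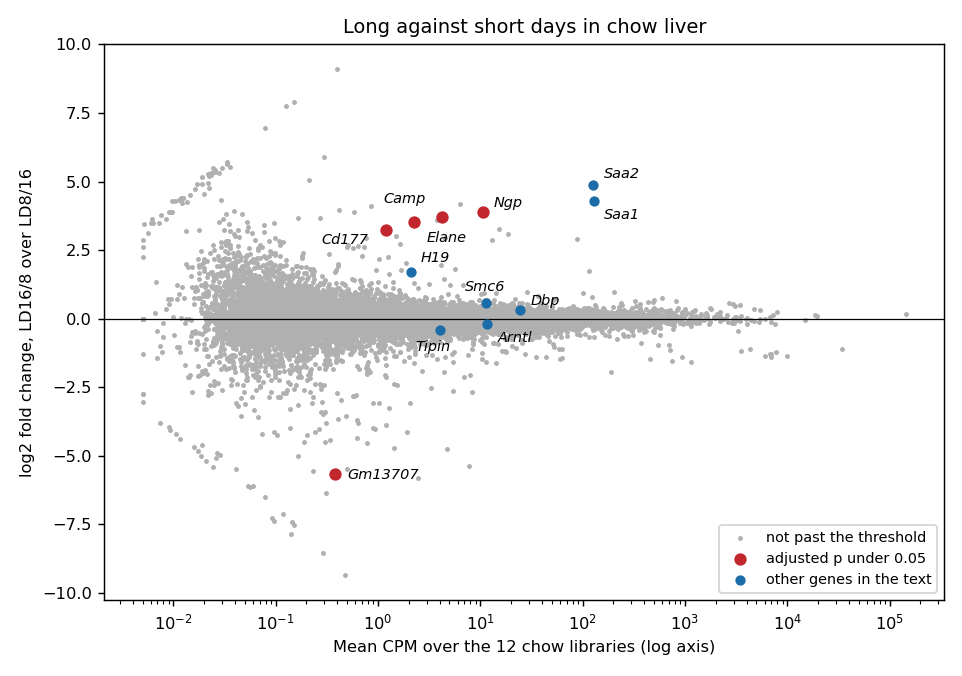
Each point is 1 of 19234 genes, with its mean over the 12 chow libraries in CPM on a log axis and its log2 fold change of LD16/8 over LD8/16; levels under 0.005 CPM are drawn at 0.005. The 5 genes past the threshold (red) are Ngp, Camp, Elane and Cd177 above 0 and Gm13707 below, while Saa1 and Saa2 lie higher and do not pass.

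Ngp encodes neutrophilic granule protein. It was at 0.397 CPM in the lowest LD16/8 library, 0.984 at the median and 106.7 in the highest, against 0.508, 1.20 and 2.32 CPM at LD8/16. A single library, LD16/8 replicate 6, was far above all others, LD16/8 replicate 4 came next at 8.96 CPM, and the remaining 4 lay within or below the LD8/16 range. The fitted log2 fold change of Ngp was 3.89 ± 0.72 (SE; edgeR adjusted p = 0.0129).

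Elane, neutrophil elastase, had the same order, with 18.6 CPM in LD16/8 replicate 6 and 5.61 CPM in replicate 4, against a highest value of 0.625 CPM at LD8/16. The log2 fold change of Elane was 3.51 ± 0.68 (edgeR adjusted p = 0.0245). Camp, the cathelicidin peptide, was at 37.8 and 7.46 CPM in these LD16/8 libraries, against at most 1.25 CPM at LD8/16, and its log2 fold change was 3.70 ± 0.74 (edgeR adjusted p = 0.0268). Cd177, a surface and granule protein of neutrophils, was at 11.9 CPM in LD16/8 replicate 6 and 0.650 CPM in replicate 4, against at most 0.407 CPM at LD8/16 (log2 fold change 3.25 ± 0.68, edgeR adjusted p = 0.0268). All 4 genes were higher in 2 of 6 LD16/8 libraries than in any LD8/16 library, and the groups overlapped in the other 4. When LD16/8 replicate 6 was left out, the log2 fold changes were 0.82 for Ngp, 1.79 for Elane, 1.57 for Camp and -0.21 for Cd177, and none passed. With LD16/8 replicates 4 and 6 both left out, a choice made after seeing the data, all 4 were negative, at -0.89 for Ngp, -0.94 for Elane, -0.65 for Camp and -1.32 for Cd177.

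Of the 12 neutrophil genes on the list used here, 3 rose (Ngp, Camp and Elane), 11 were higher at an unadjusted p under 0.05 (2.2% of all genes tested) and none fell. The neutrophil genes of LD16/8 replicate 6 were known to be high beforehand, so these counts add no separate support. Without that library, 3 were higher (2.72% of all genes) and 1 was lower (2.25%) at an unadjusted p under 0.05. The median log2 fold change of the 12 genes was 3.18, against -0.0044 over all genes, and it was 0.72 without LD16/8 replicate 6 and -0.68 without replicates 4 and 6. S100a9, a subunit of calprotectin, was at 1.69 CPM in the lowest LD16/8 library, 3.00 at the median and 164 in the highest, against 2.80, 4.21 and 4.37 CPM at LD8/16. S100a9 did not pass edgeR's test (log2 fold change 3.08 ± 0.69, edgeR adjusted p = 0.0974), nor did its partner S100a8 (3.29 ± 0.72, edgeR adjusted p = 0.0825). The granule protease Mmp9 departed from the rest of the list. It was at 12.4 CPM in LD16/8 replicate 6 but also at 12.8 CPM in LD8/16 replicate 6. In the other libraries it was at most 1.13 CPM at LD16/8 and 1.27 CPM at LD8/16. Its log2 difference was -0.04 with a 95% interval of -1.29 to 1.22, and -1.85 without LD16/8 replicate 6 (edgeR adjusted p = 0.682). LD8/16 replicate 6 also held 46.7 CPM of Cxcl13, a B cell attracting chemokine named after its values were seen, against 2.98 to 4.48 CPM in the other LD8/16 libraries.

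The 2 high LD16/8 libraries carried the same granule genes in different ratios. In replicate 6, Elane was 3.32 times and Mpo 3.69 times the level in replicate 4, and Ctsg, cathepsin G, was 5.06 times. These are primary granule genes. Of specific granule genes, Ngp was 11.9 times, Ltf, lactoferrin, 16.6 times, and Lcn2, neutrophil gelatinase-associated lipocalin, 20.6 times as high in replicate 6, and Cd177 was 18.4 times. Camp, another specific granule gene, was closer to the primary ones at 5.06 times, and Prtn3, proteinase 3 of primary granules, closer to the specific ones at 11.9 times, so the classes overlapped. Against the LD8/16 mean, Mpo was 15.5 times and Elane 15.8 times as high in replicate 4, where Ltf was 6.20 times, Lcn2 1.88 times and Cd177 2.82 times as high. Prtn3, at 3.14 times, and Camp, at 12.8 times, again crossed the classes. These ratios describe 2 libraries and carry no test, and Ctsg and Prtn3 were named after their values were seen. Mpo (log2 fold change 3.61 ± 0.81), Ctsg (4.11 ± 0.94), Prtn3 (2.86 ± 0.85), Ltf (4.17 ± 1.05), Mmp8 (2.95 ± 0.67) and Lcn2 (2.93 ± 0.81) did not pass over the 6 libraries of each cycle, at edgeR adjusted p-values of 0.0974, 0.116, 0.583, 0.238, 0.0825 and 0.439 in that order. Itgam, an integrin chain of neutrophils and other myeloid cells, and Csf3r, the receptor of a granulocyte growth factor, were also named after their values were seen. The log2 difference was 0.48 ± 0.45 for Itgam and 0.38 ± 0.38 for Csf3r (edgeR adjusted p = 1 for both), and -0.83 and -0.29 without LD16/8 replicate 6. In bulk liver, more neutrophils and more message per neutrophil cannot be told apart.

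Acute phase genes were high in LD16/8 replicate 6 and not in replicate 4. Saa1, serum amyloid A1, was at 9.63 CPM in the lowest LD16/8 library, 10.2 at the median and 1401 in the highest, against 4.27, 9.86 and 25.2 CPM at LD8/16. Saa2 had 6.35, 7.21 and 1416 CPM at LD16/8, against 2.79, 5.27 and 20.2 CPM at LD8/16. Replicate 6 was the highest LD16/8 library for both genes, replicate 4 held 10.1 CPM of Saa1 and 6.35 CPM of Saa2, and outside replicate 6 the cycles overlapped fully. Orm2, the acid glycoprotein orosomucoid 2, was at 834 CPM in LD16/8 replicate 6, against 20.1 to 69.8 CPM in the other LD16/8 libraries and 17.2 to 104.5 CPM at LD8/16. Lcn2, which hepatocytes also make in the acute phase, was at 789 CPM in replicate 6, against 8.17 to 41.1 CPM in the other LD16/8 libraries and 4.69 to 48.2 CPM at LD8/16.

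None of these genes passed: the log2 fold change was 4.29 ± 1.24 for Saa1 (edgeR adjusted p = 0.512), 4.86 ± 1.33 for Saa2 (edgeR adjusted p = 0.426) and 1.73 ± 0.62 for Orm2 (edgeR adjusted p = 0.825). Leaving out LD16/8 replicate 6 gave -0.071, -0.065 and -0.24 in that order. Of 20 acute phase genes, none passed and 8 were higher at an unadjusted p under 0.05 (2.2% of all genes tested). Without replicate 6, 1 was (2.72% of all genes), and without the pair none (2.55%). The list's median was 0.50, and 0.0045 without replicate 6. Saa3, a form made largely by macrophages and fat cells, was at 0.609 to 3.48 CPM at LD16/8 and 1.05 to 2.89 CPM at LD8/16. Reads of the near-identical Saa1 and Saa2 may have been split between them in the counting.

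**Figure D2:**
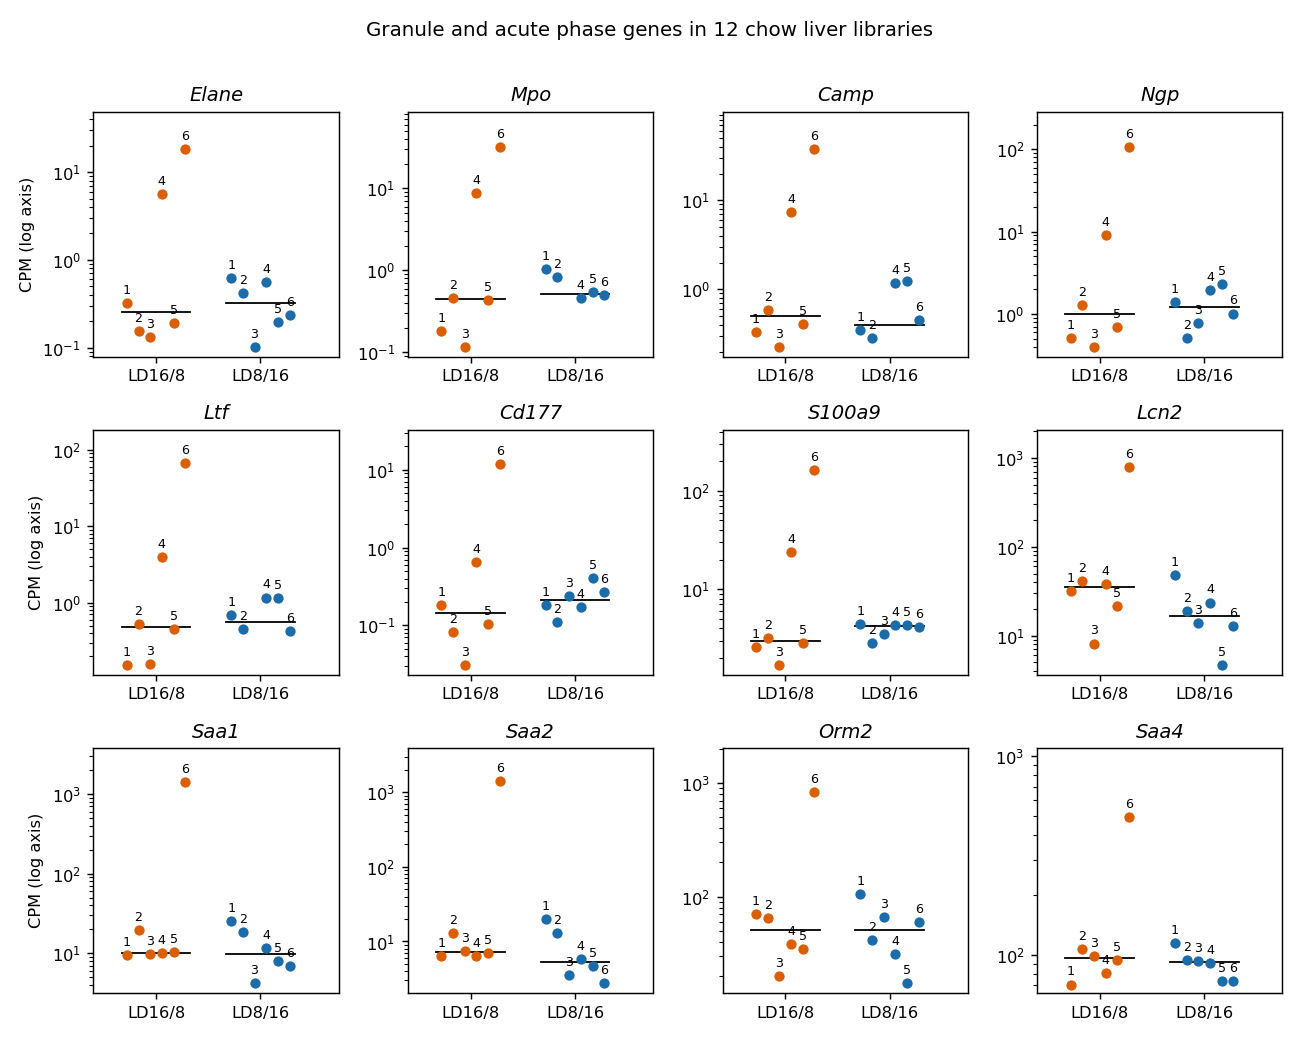
Level of 12 genes in CPM on log axes in each chow liver library, LD16/8 (orange) left of LD8/16 (blue), with replicate numbers above the points and a line at the median of 6; libraries at 0 CPM (LD8/16 replicate 3 for Mpo, Camp and Ltf) are not drawn but count in the median. LD16/8 replicate 6 is highest in every panel, and LD16/8 replicate 4 is second for Elane, Mpo, Camp, Ngp, Ltf, Cd177 and S100a9 but lies among the rest for Saa1, Saa2, Orm2 and Saa4.

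The promoters of genes from both groups are printed because their genes were high in the same library. Each is the 250 bases before the annotated start, from RefSeq on the mouse build GRCm38.p6, printed 5′ to 3′ along the gene's own strand. Capitals mark TTGCNNAA or its reverse complement TTNNGCAA, a form of the site bound by C/EBP factors, which act in both granulocytes and hepatocytes.

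Ngp (chr9:110419558-110419807, plus strand): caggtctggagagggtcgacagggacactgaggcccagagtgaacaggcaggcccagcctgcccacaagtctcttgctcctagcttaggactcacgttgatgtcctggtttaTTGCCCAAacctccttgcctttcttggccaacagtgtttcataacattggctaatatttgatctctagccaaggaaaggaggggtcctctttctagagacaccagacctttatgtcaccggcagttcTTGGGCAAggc
Ltf (chr9:111019042-111019291, plus strand): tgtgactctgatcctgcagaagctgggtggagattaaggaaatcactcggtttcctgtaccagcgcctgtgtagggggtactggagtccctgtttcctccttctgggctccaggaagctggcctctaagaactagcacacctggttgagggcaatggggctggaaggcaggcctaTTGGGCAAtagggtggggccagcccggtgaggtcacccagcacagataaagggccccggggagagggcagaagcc
Saa1 (chr7:46742981-46743230, minus strand): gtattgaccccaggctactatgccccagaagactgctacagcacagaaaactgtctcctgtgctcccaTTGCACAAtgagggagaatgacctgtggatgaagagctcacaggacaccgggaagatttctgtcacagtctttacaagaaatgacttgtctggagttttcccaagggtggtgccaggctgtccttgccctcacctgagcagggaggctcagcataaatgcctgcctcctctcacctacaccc
Saa2 (chr7:46751583-46751832, plus strand): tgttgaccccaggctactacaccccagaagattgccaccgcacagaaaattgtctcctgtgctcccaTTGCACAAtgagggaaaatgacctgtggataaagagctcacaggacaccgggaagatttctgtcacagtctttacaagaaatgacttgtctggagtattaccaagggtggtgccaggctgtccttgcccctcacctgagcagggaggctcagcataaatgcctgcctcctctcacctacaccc

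The Saa1 and Saa2 windows were identical at 238 of 251 aligned positions (94.8%), and each held the motif once, its first base 182 and 183 bases before the start. Ngp held it 138 and 11 bases before the start, and Ltf 75 bases before. Of all 32851 promoter windows in the table, 9.56% held the motif on either strand. It was in the windows of 6 of the 11 neutrophil genes and 12 of the 17 acute phase genes that had one. A gene counted if any of its windows held the motif, so these counts and the share per window are unlike measures. A match is a description of these letters only.

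The gene that fell, Gm13707, rested on a single library and was named after its values were seen. It was at 0 to 0.0389 CPM at LD16/8, against 4.40 CPM in LD8/16 replicate 3 and 0 to 0.110 CPM in the other 5 LD8/16 libraries (log2 fold change -5.66 ± 1.16, edgeR adjusted p = 0.0245). Without LD8/16 replicate 3 the log2 fold change was -0.93 and did not pass. The same library held the highest level of single metabolic and stress genes, but sums over whole lists went both ways. Of the 12 libraries it was lowest in gluconeogenesis and fasting genes (1988 CPM), urea cycle genes (3287 CPM) and endoplasmic reticulum stress genes (1430 CPM). It was highest in immediate early genes (503 CPM) and targets of the xenobiotic receptors CAR and PXR (14003 CPM). Mlxipl, which encodes the carbohydrate response factor ChREBP, was at 91.0 to 214 CPM at LD16/8, against 979 CPM in LD8/16 replicate 3 and 117 to 147 CPM in the other LD8/16 libraries. G6pc, the glucose-6-phosphatase of gluconeogenesis, was at 35.6 to 138 CPM at LD16/8, against 359 CPM in LD8/16 replicate 3 and 64.5 to 95.9 CPM in the others. Their log2 differences were -0.74 ± 0.48 for Mlxipl and -0.55 ± 0.52 for G6pc (edgeR adjusted p = 1 for both), and 0.30 and 0.12 without that library. Dusp1, a phosphatase induced by stress and glucocorticoids, was at 8.35 to 30.6 CPM at LD16/8, against 108 CPM in LD8/16 replicate 3 and 11.7 to 24.7 CPM in the others (log2 difference -0.89 ± 0.46, edgeR adjusted p = 1, and -0.05 without it). With mitochondrially encoded genes left out of the fit, Gm13707 was among the 7 genes called. With log2 mitochondrial share as covariate it was not among the 10 genes called. The cause of the high and low values in LD8/16 replicate 3 was not tested.

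Red blood cell genes tended the other way from the neutrophil genes, without passing. Of 10 tested, none passed and 6 were lower at LD16/8 at an unadjusted p under 0.05 (1.84% of all genes tested). The median was -0.81, and -0.53 without LD8/16 replicate 3. Without that library and LD16/8 replicate 6 it was -0.77, and 3 were lower at an unadjusted p under 0.05 (1.94% of all genes). Without LD16/8 replicate 6 alone, 8 were lower (2.25% of all genes). Summed over the 10 genes, LD8/16 replicates 3 and 6 held 3870 and 3999 CPM. The other LD8/16 libraries held 755 to 2260 CPM, and the LD16/8 libraries 732 to 2329 CPM. In mice on antibiotics the median was 0.54, the opposite direction, and none passed. Slc4a1, the band 3 anion exchanger, was at 0.314 CPM in the lowest LD16/8 library, 0.576 at the median and 1.101 in the highest, against 0.0802, 1.26 and 5.61 CPM at LD8/16. The highest LD8/16 value was replicate 3, and the groups overlapped (log2 difference -1.42 ± 0.57, edgeR adjusted p = 1, and -0.61 without that library). Hba-a2, an alpha globin whose reads may be shared with Hba-a1, was at 139 to 452 CPM at LD16/8 and 143 to 1049.6 CPM at LD8/16 (log2 difference -0.89 ± 0.42, edgeR adjusted p = 1, and -0.72 without the pair). Bpgm, the enzyme that makes 2,3-bisphosphoglycerate in red cells, was at 11.1 CPM in the lowest LD16/8 library, 12.3 at the median and 18.03 in the highest, against 11.7, 18.4 and 24.4 CPM at LD8/16 (log2 difference -0.52 ± 0.15, edgeR adjusted p = 0.5, and -0.55 without the pair). It was named after its values were seen, and it was lower than the LD8/16 median in all 6 LD16/8 libraries. How much blood each liver held is not stated in these sources.

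The 4 platelet genes tested were high in the same LD16/8 libraries as the neutrophil genes and in LD8/16 replicate 3. They summed to 26.9 CPM in LD16/8 replicate 4, 24.3 CPM in replicate 6 and 3.54 to 4.71 CPM in the other LD16/8 libraries, against 52.0 CPM in LD8/16 replicate 3 and 3.89 to 6.48 CPM in the other LD8/16 libraries. None passed. Their median log2 difference was -0.29, and it was 1.48 without LD8/16 replicate 3, 1.04 without the pair and -1.82 without LD16/8 replicates 4 and 6. The part of platelets, or of blood as a whole, in the neutrophil values was not tested.

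Medians of some other immune lists moved when LD16/8 replicate 6 was left out, and those of others moved less. Of 9 T cell genes, none passed and none had an unadjusted p under 0.05 with all 12 libraries, at a median of -0.38. Without LD16/8 replicate 6 alone, 4 were lower at an unadjusted p under 0.05 (2.25% of all genes) and the median was -0.94. Without LD8/16 replicate 3 as well, 5 were lower (1.94%) and the median was -0.89. Cd3g, a T cell receptor chain, was at 0.334 to 0.600 CPM in 5 LD16/8 libraries and 1.46 CPM in replicate 6, against 0.271 to 1.78 CPM at LD8/16. The 6 plasma cell genes had a median of -0.087, and -0.45 without LD16/8 replicate 6. The 7 MHC class II genes had a median of -0.07, -0.46 without LD16/8 replicate 6 and -0.50 without the pair. Without LD16/8 replicate 6, 1 of the 7 was lower at an unadjusted p under 0.05 (2.25% of all genes). Without the pair, 4 were (1.94%). Cd74, the class II invariant chain, was at 45.95 to 75.4 CPM in 5 LD16/8 libraries and 184 CPM in replicate 6, against 66.6 to 127 CPM at LD8/16. Genes of Kupffer cells, the resident macrophages of liver, had a median of 0.14, -0.32 without LD16/8 replicate 6, -0.035 without LD8/16 replicate 3 and -0.47 without both. Cd5l, a protein they secrete, was at 60.5 to 152 CPM in 5 LD16/8 libraries and 423 CPM in replicate 6, against 64.5 to 172 CPM at LD8/16. The 6 B cell genes had a median of 0.28, and 0.15 without LD16/8 replicate 6, and the 18 interferon response genes -0.044 and 0.011.

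Clock genes varied widely within each cycle, and none separated the cycles. Of the 6 activator genes and 14 repressor and output genes, none passed and none had an unadjusted p under 0.05, with medians of 0.03 and -0.02. Dbp, an output transcription factor, was at 0.735 CPM in the lowest LD16/8 library, 17.6 at the median and 89.8 in the highest, against 1.37, 5.70 and 67.3 CPM at LD8/16. Both cycles spanned nearly the whole range, and the log2 difference of Dbp was 0.32 with a 95% interval of -2.44 to 3.07, and 0.14 without the pair that stood apart. Arntl was at 3.22, 10.5 and 20.3 CPM at LD16/8 (lowest, median, highest), against 2.90, 12.0 and 23.8 CPM at LD8/16, with a log2 difference of -0.18 and an interval of -1.96 to 1.60, and -0.044 without the pair.

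In each cycle, the library highest in Arntl was the lowest in Dbp. This was LD16/8 replicate 2, at 20.3 CPM of Arntl and 0.735 CPM of Dbp, and LD8/16 replicate 1, at 23.8 CPM of Arntl and 1.37 CPM of Dbp. LD16/8 replicate 4 had the highest Dbp and Nr1d1 (80.2 CPM) of its cycle. Npas2, the partner of Arntl, ran from 0.0184 to 13.1 CPM at LD16/8 and from 0.140 to 11.6 CPM at LD8/16. The spread of Dbp and Npas2 within groups stood at the 99.4th and 99.8th percentile of all genes tested, that of Nr1d1, the repressor REV-ERBα, at the 98.3rd and that of Usp2 at the 98th. Of the 20 clock genes, 18 stood at the 50.98th percentile or above. The exceptions were Cry2, a repressor, at the 44.3rd, and Hlf, related to Dbp, at the 29.4th, with 26.8 to 37.3 CPM at LD16/8 and 14.6 to 40.3 CPM at LD8/16. No source used here gives the hour at which each mouse was sampled, and sampling time and light cycle cannot be told apart in these levels.

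**Figure D3:**
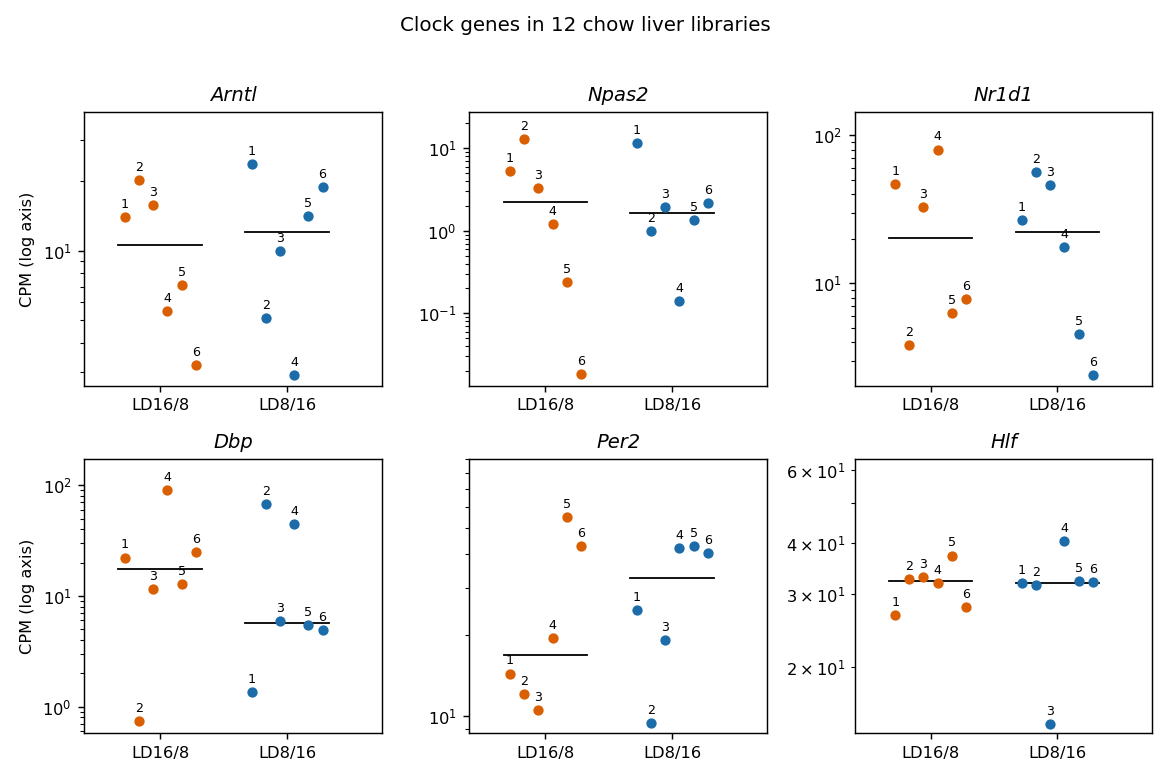
Level of 6 clock genes in CPM on log axes in each chow liver library, LD16/8 (orange) left of LD8/16 (blue), with replicate numbers above the points and a line at the median of 6. Dbp runs from 0.735 to 89.8 CPM at LD16/8 and from 1.37 to 67.3 CPM at LD8/16, so both cycles cover the same range, and LD16/8 replicate 2 and LD8/16 replicate 1 are high in Arntl and low in Dbp.

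Of the 53 gene lists, 52 held no gene that passed, and 42 had a median within 0.2 of 0 on the log2 scale. For the 10 genes of metabolism, detoxification, cell cycle and iron named next, leaving out LD16/8 replicate 6 and LD8/16 replicate 3 moved the log2 difference by at most 0.17. It turned none and brought none past the threshold. The 10 were picked, so this is no measure of stability for their lists. Mlxipl and G6pc, described above, changed sign without the same pair. In bile acid synthesis the median of 15 genes was 0.09, and 12 of them had a 95% interval within 1 log2 unit of 0, which 63.2% of all genes tested had. Baat, which conjugates bile acids, was at 163 to 235 CPM at LD16/8 and 185 to 257 CPM at LD8/16 (log2 difference -0.13 ± 0.11, edgeR adjusted p = 1). Of 25 cholesterol synthesis genes, 24 had an interval within 1 log2 unit of 0, with a median of 0.08. Msmo1, a sterol oxidase of that pathway, averaged 227 ± 73.2 CPM at LD16/8 and 170.2 ± 77.6 CPM at LD8/16 (SD; log2 difference 0.41 ± 0.29, edgeR adjusted p = 1).

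The 22 fatty acid synthesis genes had a median of 0.0041. Scd2, a fatty acid desaturase, averaged 30.9 ± 13.9 CPM at LD16/8 and 20.7 ± 8.59 CPM at LD8/16 (log2 difference 0.58 ± 0.38, edgeR adjusted p = 1). The 25 genes of fat oxidation and other PPAR alpha targets had a median of -0.12. Acadl, a dehydrogenase of long-chain fatty acid oxidation, was at 104 to 145 CPM at LD16/8 and 135 to 169 CPM at LD8/16 (log2 difference -0.21 ± 0.13, edgeR adjusted p = 1). Cyp4a14, a PPAR alpha target, ran from 14.7 to 178 CPM at LD16/8 and from 69.8 to 243 CPM at LD8/16 (log2 difference -0.66 ± 0.55, edgeR adjusted p = 1), and its interval of -1.76 to 0.44 left room for a change of over 2-fold.

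Of 19 targets of the xenobiotic receptors CAR and PXR, none passed, and the median was -0.07. Cyp2c37, a drug-metabolising P450, was at 234 to 447 CPM at LD16/8 and 313 to 588 CPM at LD8/16 (log2 difference -0.47 ± 0.24, edgeR adjusted p = 1). Ugt1a1, which conjugates bilirubin, averaged 200.2 ± 85.0 CPM at LD16/8 and 293 ± 90.9 CPM at LD8/16 (log2 difference -0.55 ± 0.30, edgeR adjusted p = 1). The glutathione transferase Gstp1 was at 190 to 322 CPM at LD16/8 and 253 to 485 CPM at LD8/16 (log2 difference -0.42 ± 0.16, edgeR adjusted p = 0.922). The 24 cell cycle genes had a median of -0.33. Mcm7, a subunit of the replicative helicase, was at 7.34 to 16.8 CPM at LD16/8 and 10.1 to 22.0 CPM at LD8/16 (log2 difference -0.40 ± 0.20, edgeR adjusted p = 1). Hamp, the iron hormone hepcidin, ran from 77.3 to 649 CPM at LD16/8 and from 59.8 to 511 CPM at LD8/16 (log2 difference 0.64 ± 0.46, edgeR adjusted p = 1). Medians were 0.07 for gluconeogenesis and fasting, 0.01 for the urea cycle, 0.06 for sex-biased liver genes, -0.04 for nuclear oxidative phosphorylation and -0.09 for cytosolic ribosomal proteins.

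**Figure D4:**
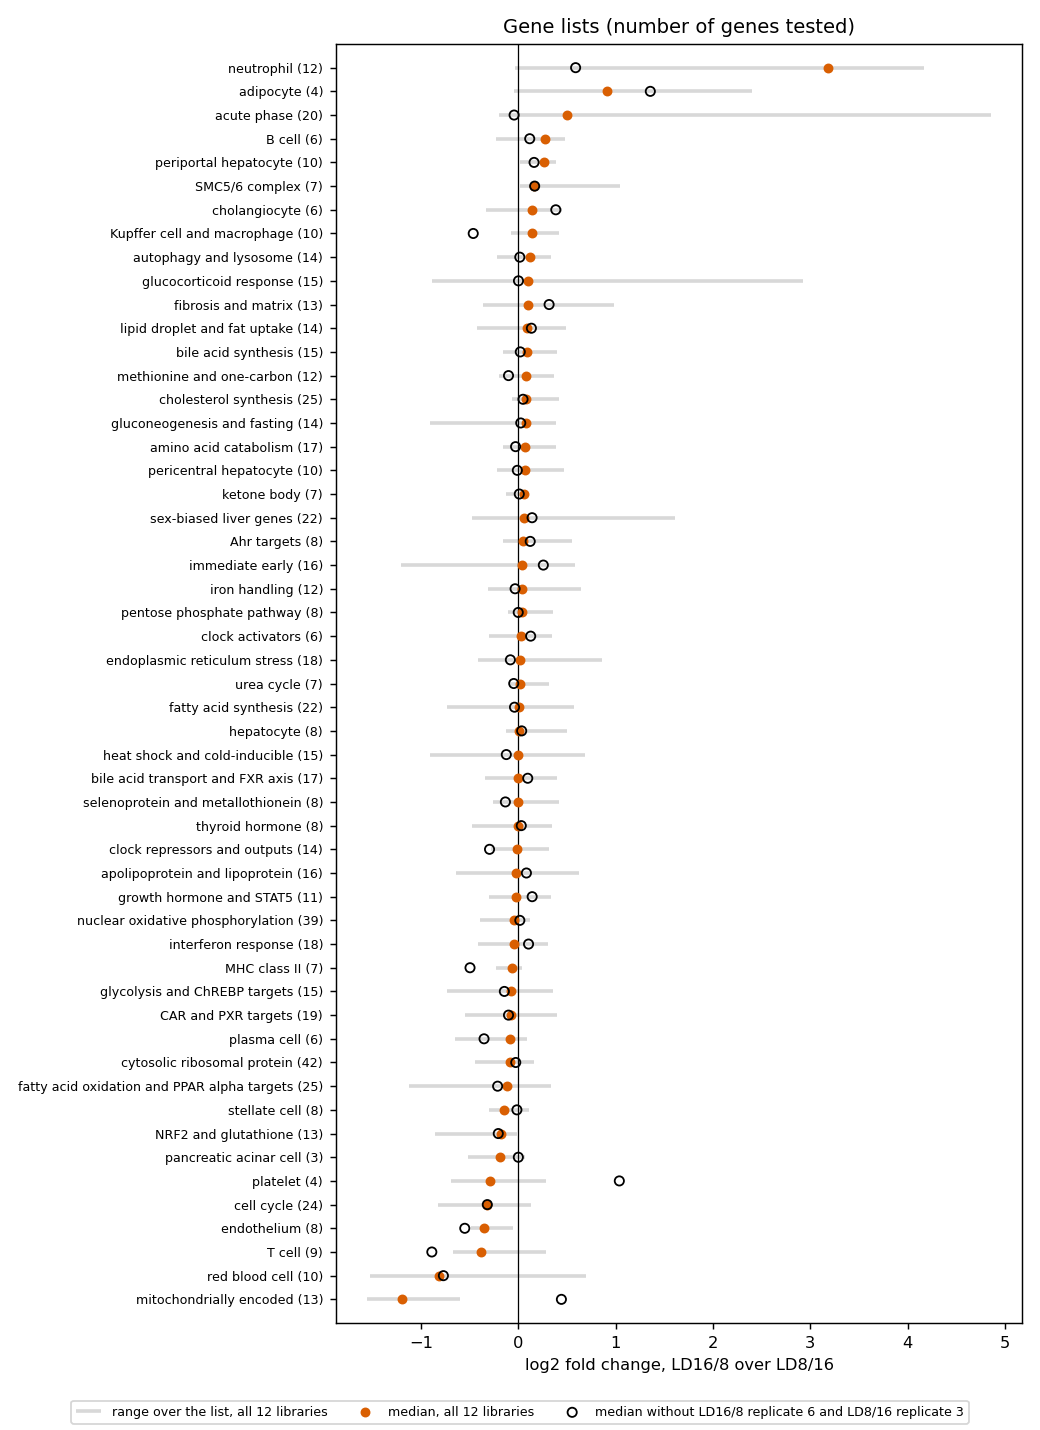
Median log2 fold change of LD16/8 over LD8/16 for each of 53 gene lists (number of genes tested in parentheses), with all 12 libraries (orange) and without LD16/8 replicate 6 and LD8/16 replicate 3 (open circles); grey bars span the lowest to the highest gene with all libraries. The neutrophil median is 3.18 with all libraries and 0.59 without the pair, the mitochondrially encoded median is -1.20 and 0.44, and 42 lists lie within 0.2 of 0 with all libraries.

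Groups that did not overlap at all were rare. With the 12 libraries in random order, a gene would separate fully, in either direction, with a probability of 0.00216. The shares seen were below that, so separation alone is no sign of a difference between the cycles. All 6 LD16/8 libraries lay above all 6 LD8/16 libraries for 8 genes (0.0416% of genes tested) and below them for 1 gene (0.0052%). With a mean of at least 2 CPM these were H19 and Tipin. H19, a maternally expressed imprinted RNA that is abundant in fetal liver, was at 1.58 CPM in the lowest LD16/8 library, 3.49 at the median and 4.92 in the highest, against 0.560, 0.964 and 1.53 CPM at LD8/16. It did not pass (log2 fold change 1.72 ± 0.62, edgeR adjusted p = 0.825), and its value without LD16/8 replicate 6 and LD8/16 replicate 3 was 1.71. In mice on antibiotics H19 averaged 7.31 ± 4.09 CPM at LD16/8 and 3.16 ± 2.19 CPM at LD8/16, and those groups overlapped (log2 fold change 1.21 ± 0.58, edgeR adjusted p = 1). The chow contrast of H19 minus that under antibiotics was 0.51 on the log2 scale and did not pass. H19 was chosen for its separation in chow, so overlap under antibiotics is no sign of a difference between the diets. Chow livers on LD12/12, with equal light and dark, had 0.479 to 1.94 CPM of H19.

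Tipin, part of the complex that protects replication forks, was at 3.19 to 3.80 CPM at LD16/8 and 4.09 to 5.06 CPM at LD8/16. Its spread within groups stood at the 0.198th percentile of all genes, among the smallest. Choosing a gene for groups that do not overlap favours a small spread, so the percentile is no separate trait. The log2 difference was -0.40 ± 0.15 (edgeR adjusted p = 0.891), and it was -0.38 without LD16/8 replicate 6 and LD8/16 replicate 3. In mice on antibiotics Tipin averaged 3.35 ± 0.586 CPM at LD16/8 and 3.47 ± 0.924 CPM at LD8/16, with overlapping groups. The chow contrast of Tipin minus that under antibiotics was -0.35 on the log2 scale and did not pass. Its partner Timeless was at 1.56 to 6.10 CPM at LD16/8 and 2.47 to 7.12 CPM at LD8/16.

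Smc6, a subunit of the SMC5/6 genome maintenance complex, averaged 13.6 ± 4.93 CPM at LD16/8 and 9.24 ± 2.15 CPM at LD8/16 (log2 difference 0.56 ± 0.20, edgeR adjusted p = 0.767). LD16/8 replicate 6 was the lowest of all 12 at 5.03 CPM, and the other 5 LD16/8 libraries, at 12.8 to 18.6 CPM, lay above all LD8/16 libraries, at 7.47 to 12.5 CPM. That separation appears only with LD16/8 replicate 6 set aside, and the share of all genes that separate in this way was not counted. Without LD16/8 replicate 6 the log2 difference was 0.73 ± 0.18 (edgeR adjusted p = 0.256). Scai, a suppressor of cancer cell invasion that also acts in DNA repair, and Ppig, a nuclear cyclophilin, behaved alike. Both were named after their values were seen. Ppig was at 17.6 to 22.4 CPM in 5 LD16/8 libraries and 3.27 CPM in replicate 6, against 6.73 to 15.0 CPM at LD8/16. Leaving it out gave a log2 difference of 0.89 ± 0.20 for Ppig (edgeR adjusted p = 0.183) and 1.11 ± 0.26 for Scai (edgeR adjusted p = 0.245), against 0.68 ± 0.24 and 0.90 ± 0.29 with it. In mice on antibiotics Smc6 averaged 16.9 ± 1.00 CPM at LD16/8 and 18.6 ± 1.49 CPM at LD8/16, and the log2 difference was -0.14 ± 0.19.

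**Figure D5:**
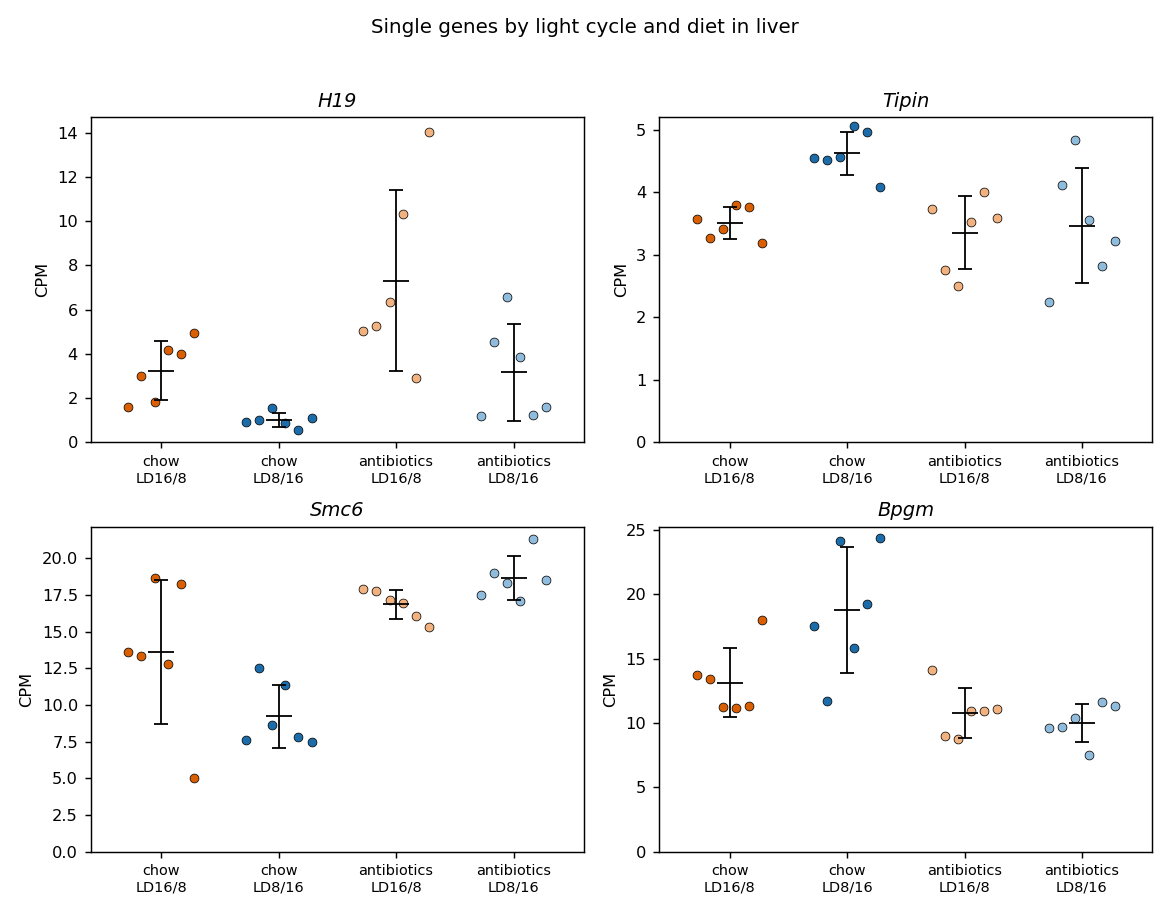
Level of H19, Tipin, Smc6 and Bpgm in CPM in 6 libraries each of chow LD16/8, chow LD8/16, antibiotics LD16/8 and antibiotics LD8/16, with bars for the mean and SD. H19 and Tipin were chosen because the chow cycles do not overlap (H19 1.58 to 4.92 against 0.560 to 1.53 CPM, Tipin 3.19 to 3.80 against 4.09 to 5.06 CPM). Under antibiotics the cycles overlap, and the difference of the contrast between the diets did not pass for either gene.

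The same contrast in mice on antibiotics called no gene (0%), with 358 at an unadjusted p under 0.05, and the test of whether the contrast differed between the diets also called none (0%), with 529. DESeq2 called 6 and 9 genes in these tests, and limma-voom none in either. Apart from Lcn2, the neutrophil genes were low in these mice, with a sum over the other 11 of 1.44 to 9.95 CPM at LD16/8 and 1.16 to 3.45 CPM at LD8/16. With Lcn2 the sum was 79.4 CPM in LD16/8 replicate 3, 9.45 to 24.6 CPM in the other LD16/8 libraries and 8.55 to 21.6 CPM at LD8/16. Ngp was at 0 to 0.101 CPM at LD16/8 and 0 to 0.219 CPM at LD8/16, and Mpo at 0 to 0.0645 CPM at LD16/8 and 0 CPM in all 6 libraries at LD8/16. Saa1 was at 29.9 to 99.2 CPM at LD16/8 and 9.00 to 38.4 CPM at LD8/16 under antibiotics (log2 fold change 1.14 ± 1.103, edgeR adjusted p = 1). Its difference between the diets was 3.15 on the log2 scale and did not pass (edgeR adjusted p = 1), nor did that of Ngp, at 4.90 (edgeR adjusted p = 1).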

How the data were processed

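Liver messenger RNA was analysed. TRIzol extraction and a SMARTER mRNA library kit are named per the labels' protocols, and HISAT2 2.1.0, SAMtools 1.10, StringTie 2.2.1 and the build GRCm39 per the submitters' processing notes. No source used here gives strand, sex, sampling hour or batches, so reads of a gene and of an antisense neighbour cannot be told apart. The deposited values were taken as estimated counts per gene, as StringTie gives, and all were whole numbers, so rounding changed none. Values of 4 were in surplus (146172 cells, against 86363 with 3 and 66710 with 5), and the tests were repeated on values divided by 4. Of 46333 rows, 2 named no gene, held at most 0.0093% of a liver library and were left out.

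Groups followed the labels. Since no label states that a group's libraries are separate mice, the p-values reflect spread between libraries, which may be technical. No pair of the 12 libraries held identical values. Libraries with the same replicate number were correlated at -0.16 to 0.41, over 0.1 in 3 of 6 pairs, so they were not treated as pairs. The main fit used edgeR 4.0.16 (R 4.3.3) on 59 of 60 liver libraries with TMM scaling, filterByExpr, 1 mean per diet and cycle and the robust quasi-likelihood test. The 1 library left out, of antibiotics LD0/24, had 0 counts on whole chromosomes. Two-sided p-values were adjusted by the Benjamini-Hochberg method over 19234 genes at 0.05. Levels are CPM on TMM-scaled library sizes, and the SE is the absolute log2 fold change over the square root of F. Depth and the number of libraries limit precision for genes under about 1 CPM. DESeq2 1.42.0, limma 3.58.1 (voom), other filters and sample sets, covariates, a replicate block and left-out libraries were alternatives. The code was tested on simulated data.

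Members and lists were chosen with earlier results of these data known. Genes named were those that passed at a mean of at least 1 CPM, those with non-overlapping groups at a mean of at least 2 CPM, any clock or neutrophil list member, and of each other list up to 4 with the smallest p. Of the genes so chosen, 1 is not reported here. Other genes with values in the text were named after their values were seen.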

Additional observations from a re-analysis of the deposited data

Results flagged for a closer look

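Within groups of 6, a library was singled out where its gap to the nearest other library took more than 0.625 of the group's range. For normally distributed values, chance alone gives about 1 in 20 groups such a library. Levels in CPM need not be so distributed, and the rate for them is not known. Of 88 groups checked, 27 held 1, and 18 of these were LD16/8 replicate 6. That library and LD8/16 replicate 3 were already known for such values, and several genes were named after theirs were seen, so the count is not to be read against the chance rate.

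In LD16/8 replicate 6, the neutrophil genes singled out were Ngp at 106.7 CPM, Elane at 18.6, Camp at 37.8, Cd177 at 11.9, Mpo at 32.1, Ctsg at 7.88 and Prtn3 at 120.0 CPM. Further neutrophil genes were S100a8 at 137.8 CPM, S100a9 at 164, Ltf at 66.1, Mmp8 at 7.01 and Mmp9 at 12.4 CPM. The acute phase genes were Saa1 at 1401 CPM, Saa2 at 1416, Orm2 at 834 and Lcn2 at 789 CPM. Bpgm was high in that library at 18.03 CPM, and Ppig low at 3.27 CPM.

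In LD8/16 replicate 3, the mitochondrial share of 40.9% was singled out, with Gm13707 at 4.40 CPM, Slc4a1 at 5.61, Mlxipl at 979, G6pc at 359 and Dusp1 at 108 CPM. The remaining values were Mmp9 at 12.8 CPM in LD8/16 replicate 6, Mcm7 at 22.0 CPM in LD8/16 replicate 5 and Dbp at 89.8 CPM in LD16/8 replicate 4.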

How the results depend on the processing

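The count of 5 genes called in chow liver moved to 8 with DESeq2, 3 with values divided by 4 and 10 with log2 mitochondrial share as covariate. It moved to 0 with limma-voom, with the older quasi-likelihood version, with chow liver libraries only, with the 12 libraries compared only, with Arntl and Dbp as covariates, without LD16/8 replicate 6 and LD8/16 replicate 3, and without LD16/8 replicates 4 and 6. With each library left out in turn it ran from 0 to 13. It was 0 without LD16/8 replicate 6 and without LD8/16 replicate 3, 2 without LD16/8 replicate 4, 1 to 4 without another LD8/16 library and 12 or 13 without another LD16/8 library. With the replicate block it was 0, but no label makes same-numbered libraries pairs, and they were not treated as such (3 of 6 LD16/8 libraries correlated best with their own number, which does not settle it). Under antibiotics the count of 0 moved to 6 with DESeq2 and ran from 0 to 25 with each library left out, 25 being without LD16/8 replicate 3. The difference between the diets moved to 9 calls with DESeq2. The 10 chow calls with mitochondrial share as covariate included the mitochondrial transfer RNAs TrnG, TrnH, TrnL2 and TrnS2, and not Camp or Gm13707.

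The mitochondrial share differed by -4.91 percentage points (LD16/8 minus LD8/16; exact permutation p = 0.905), and by 1.70 without LD16/8 replicate 6 and LD8/16 replicate 3 (exact permutation p = 0.0556).

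Of 1084 alternative values of single genes, 956 kept direction and call, 66 lost the call, 25 gained it and 37 changed sign. They cover 42 genes, of which only 5 were called in the main fit. Only those 5 could lose a call, and for the rest keeping the call meant staying uncalled. The 956 is therefore no measure of how stable the 5 calls were. Without LD16/8 replicates 4 and 6, the log2 fold changes that turned were Ngp -0.89, Elane -0.94, Cd177 -1.32, Camp -0.65, Mpo -0.93, S100a8 -0.57, S100a9 -0.62, Ltf -1.04, Mmp8 -0.72, Prtn3 -0.70, Ctsg -0.99, Saa1 -0.019, Orm2 -0.18, Arntl 0.20 and Dbp -0.89. Without LD16/8 replicate 6 and LD8/16 replicate 3 they were Cd177 -0.21, Saa1 -0.25, Saa2 -0.22, Orm2 -0.17, Mlxipl 0.42 and G6pc 0.28. With limma-voom, Mmp9 was 0.61. With each library left out in turn, ranges that crossed 0 were -0.21 to 3.51 for Cd177, -1.85 to 1.82 for Mmp9, -0.071 to 4.62 for Saa1, -0.065 to 5.35 for Saa2, -0.24 to 2.05 for Orm2, -0.45 to 0.12 for Arntl, -0.60 to 1.105 for Dbp, -0.89 to 0.30 for Mlxipl and -0.74 to 0.12 for G6pc. The causes of these moves were not tested.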
